A study of Homo sapiens with 64 samples.

Results

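The response of BEAS-2B cells to 1 h of indacaterol was measured on 8 arrays, 4 from cells treated with 10 nM indacaterol and 4 from cells treated with vehicle, out of 64 arrays in the series. The arrays were chosen by their labelled treatment and time alone, and every gene with a single current symbol was tested (19775 genes). BEAS-2B is a virus-immortalised human airway epithelial line, grown here in serum-free keratinocyte medium and treated at confluence. All samples carry the label of this 1 line. What the vehicle was is not given in the sources used here. For comparison the text uses 10 nM indacaterol and vehicle at 2, 6 and 18 h, and at 1 h 10 nM GSK 256066 (GSK), an inhibitor of phosphodiesterase 4 (PDE4), with and without 10 nM indacaterol, each with 4 arrays. Each group has replicates 1 to 4. Whether these were separate cultures is not given in the sources used here, so p-values measure the spread between these samples.

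Indacaterol, an inhaled long-acting bronchodilator, switches on adenylyl cyclase and so increases cyclic AMP (cAMP) in the cell. Cyclic AMP activates protein kinase A, which phosphorylates the transcription factor CREB on promoters that carry the cAMP response element. Genes that need no new protein to be switched on, the immediate early genes, respond within the first hour, and several of them encode proteins that damp the cAMP and MAP kinase pathways again. PDE4 enzymes end the signal by breaking cAMP down.

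Values are linear probe-set signals, and the array medians ran from 113.8 to 121.2 with indacaterol, against 115.2 to 120.8 with vehicle. The arrays numbered 3 stood apart in both groups, and whether they came from the same stock of cells is not given in the sources used here. KRT14, a keratin of basal keratinocytes, had 20.1, 17.8, 275800 and 31.5 in indacaterol-treated cells, against 15.1, 29.1, 284000 and 24.6 in vehicle-treated cells, where values are always given for replicates 1 to 4 in order. KRT5 had 149.8, 114, 30170 and 180.2 with indacaterol, against 115, 162, 30540 and 164 with vehicle, and the calcium-binding protein gene S100A9 had 102, 97.8, 97110 and 151 in indacaterol-treated cells, against 85.4, 110.5, 101900 and 143 in vehicle-treated cells. None of the 3 was called with indacaterol (log2 changes -0.004, -0.001 and 0.017), and results that rest on the arrays numbered 3 are given with and without them.

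The epithelial label was checked against marker lists. The simple-epithelium keratin KRT8 had 5003, 4666, 6266 and 4773 with indacaterol, against 4639, 4758, 6363 and 5048 with vehicle, and KRT18 had 7973, 7641, 8036 and 8665 in indacaterol-treated cells, against 7894, 8062, 8575 and 8683 in vehicle-treated cells. By call 0 of 6 measured epithelial markers changed at 1 h in limma (0 had an unadjusted p under 0.05). EPCAM, an epithelial adhesion gene, had 128, 71.2, 208 and 48.7 with indacaterol, against 138, 81.3, 248 and 56.4 with vehicle. COL1A1, a fibroblast collagen, was also measured at high signal, with 7960, 8951, 6915 and 8242 in indacaterol-treated cells, against 7394, 9348, 7011 and 9412 in vehicle-treated cells. Defining markers of leukocytes (PTPRC, 19.3 to 35.9 with indacaterol, against 20.6 to 26.1 with vehicle), ciliated cells (FOXJ1, 11.5 to 19.2 with indacaterol, against 10.2 to 31.5 with vehicle) and secretory cells (SCGB1A1, 37.3 to 61.7 with indacaterol, against 40.3 to 56.4 with vehicle) were dim in both groups. Other members of the ciliated list were not dim. Its 8 measured markers summed to 4143 to 5734 with indacaterol, against 4313 to 6176 with vehicle. The summed signal of the 9 measured fibroblast markers ran from 9122 to 13290 with indacaterol, against 9229 to 13950 with vehicle, and that of the 9 leukocyte markers from 751.8 to 1068 with indacaterol, against 783.4 to 1098 with vehicle, so neither sum separated the groups. In RNA from whole cultures, a change in the share of cells that express a gene and a change in RNA per cell cannot be told apart.

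The promoters of 5 genes that rose show how the cAMP response element is spread over them. Each sequence runs from 250 bases before to 50 bases after the start of the gene in RefSeq (GRCh38.p14), 5′ to 3′ on the strand of the gene. Capitals mark the core TGACG or its reverse complement CGTCA, and where 2 cores overlap they form the full palindrome TGACGTCA. NR4A3 (chr9:99821635-99821934, plus strand) and SIK1 (chr21:43427082-43427381, minus strand) carry several cores, DUSP1 (chr5:172771146-172771445, minus strand) and AVPI1 (chr10:97687192-97687491, minus strand) are the 2 risen genes with the palindrome, and IL6 (chr7:22726950-22727249, plus strand) is the cytokine that rose most.
NR4A3: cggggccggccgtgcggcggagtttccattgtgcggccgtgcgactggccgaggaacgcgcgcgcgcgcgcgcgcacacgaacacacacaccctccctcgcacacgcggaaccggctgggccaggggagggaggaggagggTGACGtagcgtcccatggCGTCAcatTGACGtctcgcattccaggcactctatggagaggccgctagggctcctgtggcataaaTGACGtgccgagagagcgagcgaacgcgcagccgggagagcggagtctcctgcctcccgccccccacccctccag
SIK1: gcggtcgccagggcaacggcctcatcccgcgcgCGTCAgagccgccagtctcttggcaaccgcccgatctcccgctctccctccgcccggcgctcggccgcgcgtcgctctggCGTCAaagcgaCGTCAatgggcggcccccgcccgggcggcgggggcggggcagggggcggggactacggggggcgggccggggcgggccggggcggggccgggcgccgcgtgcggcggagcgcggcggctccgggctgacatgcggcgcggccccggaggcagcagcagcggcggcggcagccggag
DUSP1: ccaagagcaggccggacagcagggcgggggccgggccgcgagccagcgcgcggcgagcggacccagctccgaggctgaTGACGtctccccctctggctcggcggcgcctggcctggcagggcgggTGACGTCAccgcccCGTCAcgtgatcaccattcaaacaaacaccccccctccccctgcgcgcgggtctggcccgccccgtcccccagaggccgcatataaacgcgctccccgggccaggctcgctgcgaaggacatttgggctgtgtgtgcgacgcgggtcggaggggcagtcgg
AVPI1: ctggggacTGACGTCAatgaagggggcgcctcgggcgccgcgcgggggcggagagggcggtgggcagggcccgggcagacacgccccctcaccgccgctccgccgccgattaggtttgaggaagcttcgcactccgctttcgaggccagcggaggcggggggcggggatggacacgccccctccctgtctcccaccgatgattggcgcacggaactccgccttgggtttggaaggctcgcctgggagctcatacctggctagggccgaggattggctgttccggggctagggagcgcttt
IL6: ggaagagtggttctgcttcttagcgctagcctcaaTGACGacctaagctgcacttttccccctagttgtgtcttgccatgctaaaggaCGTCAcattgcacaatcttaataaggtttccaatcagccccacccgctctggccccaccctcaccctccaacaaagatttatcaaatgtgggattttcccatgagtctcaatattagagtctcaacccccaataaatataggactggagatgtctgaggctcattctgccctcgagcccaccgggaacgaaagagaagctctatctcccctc
A promoter was given for 32 of the 37 genes that rose, and motifs were searched on both strands. The palindrome TGACGTCA stood in 2 of the 32 (6.25%), against 410 of 15382 promoters of all tested genes (2.67%). The core TGACG, which the palindrome holds on each strand, stood in 11 of the 32 (34.4%), against 29.7% of all. The kB site stood in 5 of the 32 (15.6%), against 12.4%, the CArG box in 1 (3.12%), against 1.21%, and TGANTCA in 0, against 5.83%. All 5 promoters printed above carry the core, whereas those of PRDM1, SGK1, EDN1 and NR4A1 carry none. When arrays were paired by their replicate number, as described below, more genes were called in both directions. The palindrome then stood in 6 of 120 promoters of risen genes (5.0%) and in 3 of 45 of fallen genes (6.67%). The core stood in 33.3% and 35.6% of them, so neither motif was commoner among the risen than among the fallen genes there. Against all promoters (2.67% and 29.7%) both motifs were commoner in both groups. These shares describe letters in a window of fixed length and were not tested.

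After 1 h of indacaterol 42 genes were called (limma on all arrays, Benjamini-Hochberg adjusted p under 0.05), 0.212% of those tested. Of these, 37 rose (0.187%) and 5 fell (0.0253%), and 18 of the 37 rose at least 2-fold while none of the 5 fell by as much. Each log2 change was computed after adding 16 to every signal, so that folds of dim genes are understated, and errors are SE with n = 4 arrays per group. All 37 rises were made by 4 indacaterol arrays that each lay above all 4 vehicle arrays, and all 5 falls by 4 that lay below, where over all tested genes 2.36% lay above and 1.83% below without overlap. For a single gene such a split has an exact two-sided permutation p of 0.0286, the smallest that 4 against 4 can give. The median log2 change of all tested genes was -0.022, and 1399 genes had an unadjusted p under 0.05.

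The replicate numbers taken to pair the arrays changed the count of calls. With replicate number as a block, 206 genes were called (1.04%), of which 151 rose (0.764%) and 55 fell (0.278%), and all 42 genes were among them. Fitted on the 8 arrays alone, 11 genes were called without the block and 43 with it, all of them higher, and 21 of the 42 were among the 43. Leaving out the arrays numbered 1 from every group left 18 calls, leaving out those numbered 2 left 24, and leaving out the indacaterol array numbered 3 left 27. Of the 42, 17 remained called without the arrays numbered 1, 23 without those numbered 2, 32 without those numbered 3 and 28 without those numbered 4. The 10 genes called under all 24 alternatives were CSRNP1, DUSP1, EDN1, IL6, ITPRIP, NR4A3, PRDM1, RGS2, SGK1 and TRIB1.

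**Figure D1:**
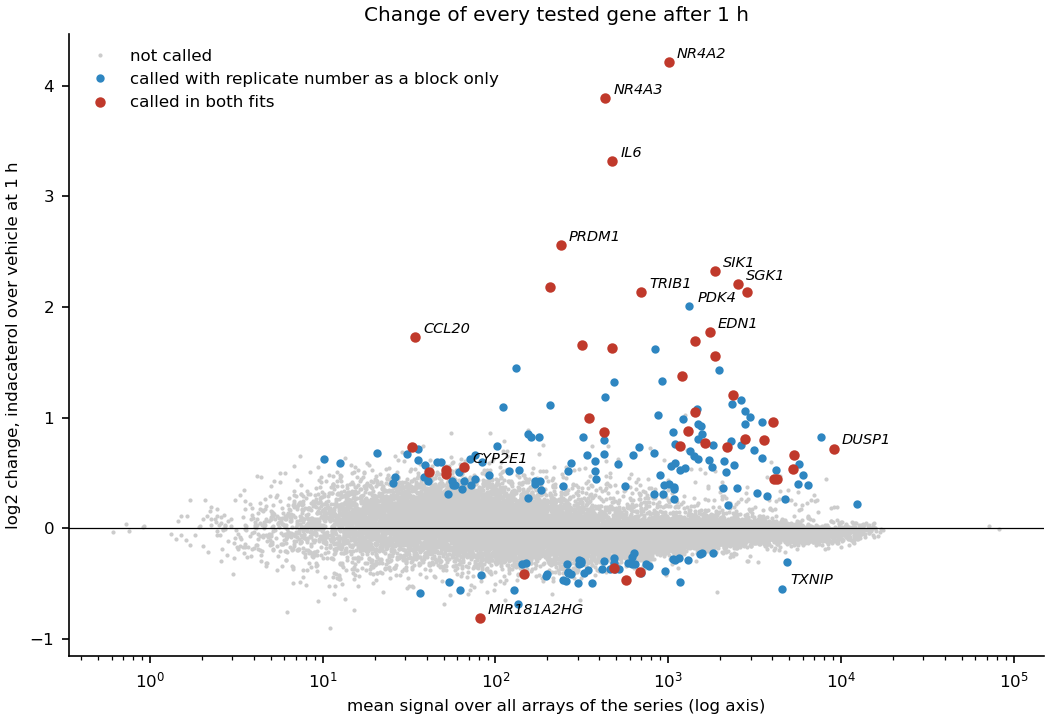
Log2 change between indacaterol and vehicle at 1 h (y axis) against the mean signal over all 64 arrays (x axis, log scale) for each of 19775 tested genes; red points are the 42 genes called in both fits and blue points the 164 called only with replicate number as a block. The risen genes reach a log2 change of 4.21 and no gene called in both fits lies below -0.81.

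The greatest rises were those of NR4A2 and NR4A3, orphan nuclear receptors made within the first hour of many stimuli. NR4A2 had 5098, 1168, 8179 and 742 with indacaterol, against 119.7, 98.6, 181 and 87.7 with vehicle (log2 change 4.21 ± 0.75, adjusted p = 0.000764). NR4A3 had 1766, 606, 1372 and 345 in indacaterol-treated cells, against 63.5, 63.6, 23.9 and 30.2 in vehicle-treated cells (log2 change 3.88 ± 0.58, adjusted p = 3.41e-05). NR4A1, of the same family, rose by less, with 1118, 844, 1273 and 544 with indacaterol, against 321, 264, 266 and 252 with vehicle (log2 change 1.66 ± 0.27, adjusted p = 0.000127). In each of the 3 genes the lowest indacaterol array was number 4 and still lay above every vehicle array. Indacaterol arrays 1 and 3 of NR4A2 were several times brighter than arrays 2 and 4, whereas the vehicle arrays differed much less, so the difference within a number ran from 2.87 in replicate 4 to 5.38 in replicate 3. NR4A2 kept its call without the arrays numbered 3 (log2 change 3.83, adjusted p = 0.00416) and missed the threshold without those numbered 1 (3.87, adjusted p = 0.185).

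**Figure D2:**
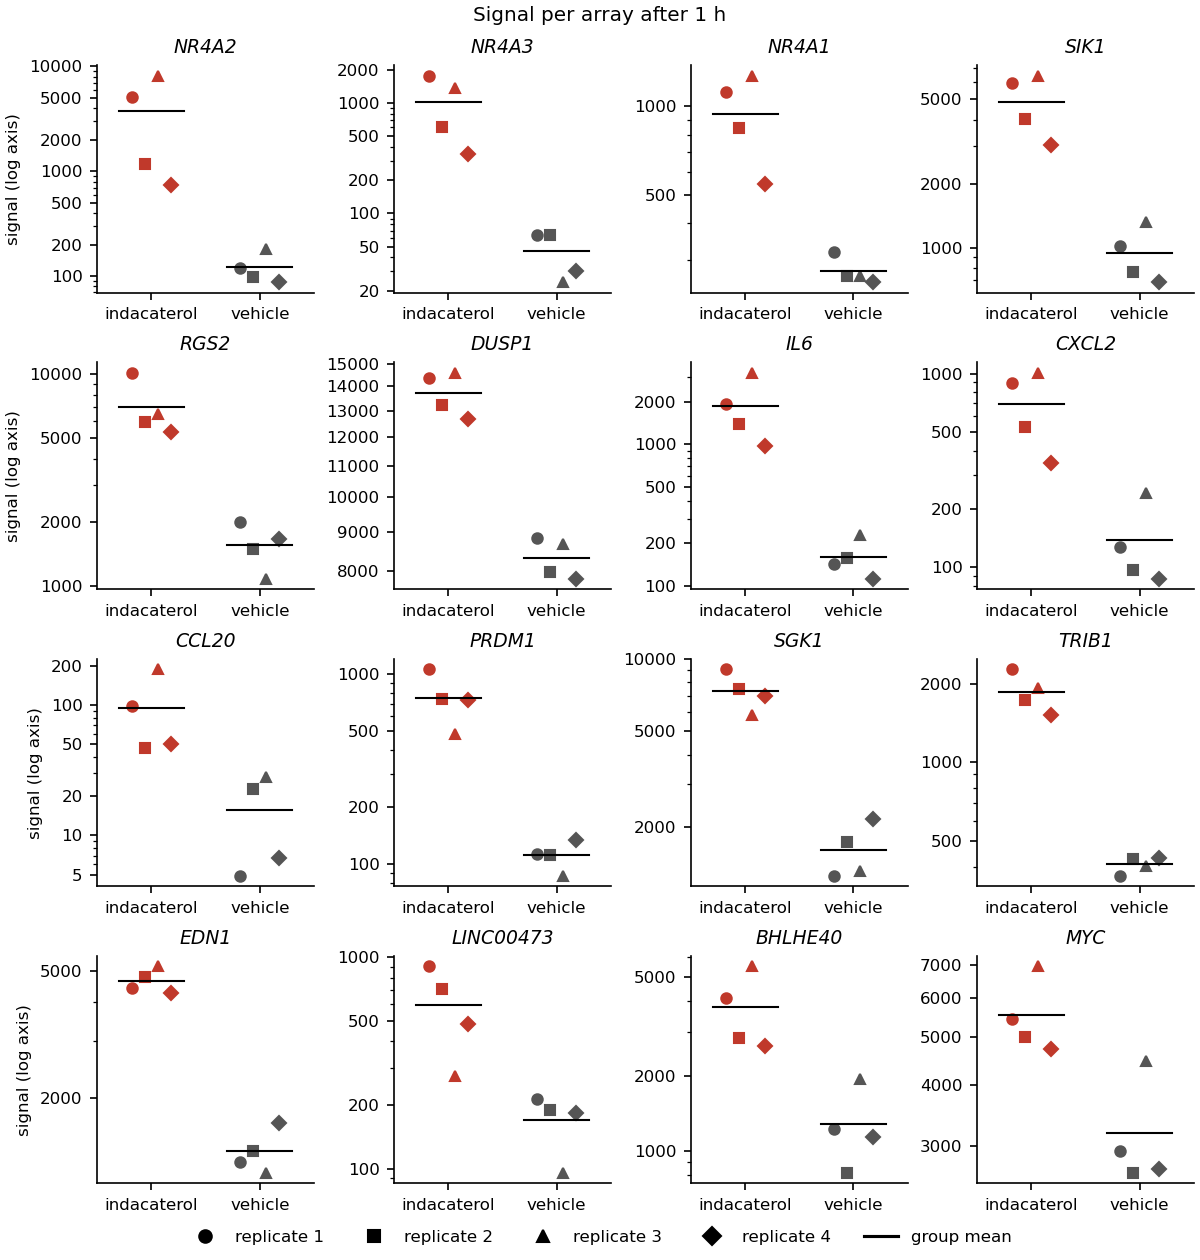
Signal of 16 genes that rose, in each of the 4 indacaterol arrays (red, left) and the 4 vehicle arrays (grey, right) at 1 h; y axes are logarithmic and differ between panels, marker shapes give the replicate number and lines the group means. No panel has an indacaterol array at or below a vehicle array.

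Of the genes whose products restrain cAMP signalling, SIK1 and RGS2 rose. SIK1 encodes a salt-inducible kinase that holds the CREB coactivators in the cytoplasm, and it had 5956, 4030, 6467 and 3046 in indacaterol-treated cells, against 1019, 768, 1319 and 686 in vehicle-treated cells (log2 change 2.33 ± 0.39, adjusted p = 0.000232). RGS2, a regulator that shortens signalling by G proteins, had 10180, 5921, 6498 and 5328 with indacaterol, against 2008, 1499, 1081 and 1663 with vehicle (log2 change 2.14 ± 0.28, adjusted p = 2.09e-06). The difference of SIK1 within each replicate number lay between 2.12 and 2.53, and that of RGS2 between 1.67 and 2.57. Without the arrays numbered 1 SIK1 missed the threshold (log2 change 2.26, adjusted p = 0.0508). PDE4D, which breaks cAMP down, was called only with replicate number as a block (log2 change 1.02, adjusted p = 0.579, with the block 0.00171). Its arrays overlapped, with 1262, 544, 1164 and 421 in indacaterol-treated cells, against 468, 256, 504 and 300.4 in vehicle-treated cells. PDE4B had 708, 498, 695 and 457 with indacaterol, against 355, 286, 352 and 312 with vehicle, with no overlap, and was also called only with the block (adjusted p = 0.165, with the block 0.0135). CREM, a member of the CREB family with a cAMP-inducible short form, averaged 433 ± 57.2 with indacaterol and 414 ± 17.4 with vehicle (SD, n = 4 each), a log2 change of 0.056. Of 30 measured brakes on cAMP signalling 2 rose and 0 fell (4 and 0 with the block), with a median log2 change of -0.050. By comparison 0.187% of all tested genes rose (0.764% with the block). Of the 25 measured genes for the receptor, G protein, cyclases, protein kinase A and the CREB machinery, 0 were called by limma in either fit (1 had an unadjusted p under 0.05, lower), with a median of -0.046 and a range from -0.26 to 0.29.

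The dual-specificity phosphatase DUSP1, which switches off p38 and JNK MAP kinases, rose in both of its brighter probe sets. The brightest had 14380, 13230, 14600 and 12680 in indacaterol-treated cells, against 8832, 7982, 8669 and 7800 in vehicle-treated cells (log2 change 0.72 ± 0.12, adjusted p = 0.000251). The differences within the 4 numbers ran from 0.70 to 0.75. This probe set lay near the highest signal on the arrays numbered 1, 2 and 4, which was 17510 to 17930. On the arrays numbered 3 the highest signal was far above it, at 275800 with indacaterol and 284000 with vehicle. The second DUSP1 probe set, with means of 6046 with indacaterol and 1710 with vehicle, gave a log2 change of 1.80 (adjusted p = 9.87e-09 over probe sets). Whether the height of the brightest signal bears on the smaller change was not tested. DUSP4, another nuclear MAP kinase phosphatase, rose by a log2 change of 0.73, and SPRY2, an inhibitor of growth factor signalling to ERK, by 1.05. MAP3K8, which activates the ERK pathway, also rose, with 786, 591, 590.5 and 446 with indacaterol, against 277, 269, 346 and 268 with vehicle (log2 change 1.00 ± 0.21, adjusted p = 0.0147). Without the arrays numbered 1 DUSP4, SPRY2 and MAP3K8 missed the threshold (adjusted p = 0.294, 0.349 and 0.384). Of 19 measured MAP kinase feedback genes 3 rose and 0 fell (5 and 0 with the block), with a median log2 change of 0.14. The share of all tested genes that rose was 0.187% (0.764% with the block).

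IL6, which encodes an interleukin made by stimulated epithelium, rose 9.99-fold. It had 1913, 1396, 3214 and 980.5 in indacaterol-treated cells, against 144, 159, 229.7 and 112 in vehicle-treated cells (log2 change 3.32 ± 0.47, adjusted p = 1.31e-05), and arrays numbered 3 were the brightest of both groups. CXCL2, a chemoattractant for neutrophils, had 889, 529, 1012 and 346 with indacaterol, against 127, 97.2, 243 and 86.7 with vehicle (log2 change 2.19 ± 0.40, adjusted p = 0.00124). CCL20, which draws cells with the receptor CCR6, was dim but separated, with 98, 47.2, 188 and 50.1 in indacaterol-treated cells, against 4.87, 22.8, 28.1 and 6.72 in vehicle-treated cells (log2 change 1.73 ± 0.33, adjusted p = 0.00267). Both chemokines missed the threshold without the arrays numbered 1 (adjusted p = 0.214 for CXCL2 and 0.374 for CCL20), and CXCL2 also without those numbered 2 (adjusted p = 0.123). CXCL3, a close paralog of CXCL2, had 55.9, 45.9, 62.3 and 41.5 with indacaterol, against 24.7, 23.3, 39.6 and 25.1 with vehicle and was called only with the block (adjusted p = 0.167, with the block 6.12e-05); whether the probe sets of these paralogs share signal was not tested. The other probe sets of CXCL2 gave log2 changes of 0.063 and 0.16, with means of 102.9 and 49.8 with indacaterol against 96.5 and 42.9 with vehicle. CXCL8 and CXCL1, 2 more neutrophil chemoattractants, were not called in either fit, with log2 changes of 0.53 and 0.48 and overlapping arrays. LIF, of the IL6 family, had a log2 change of 0.76 and was not called in either fit (adjusted p = 0.633, with the block 0.0975). Of 30 measured cytokine and chemokine genes 3 rose and 0 fell (4 and 0 with the block), with a median of 0.17. Among all tested genes 0.187% rose (0.764% with the block).

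Transcription factors outside the NR4A family rose by log2 changes between those of TFAP2A and PRDM1. PRDM1, a zinc finger repressor of differentiation programmes, had 1061, 739, 484 and 733 in indacaterol-treated cells, against 112, 112, 86.6 and 134 in vehicle-treated cells (log2 change 2.56 ± 0.28, adjusted p = 1.36e-08). BHLHE40, a repressor linked to the circadian clock, had 4095, 2838, 5495 and 2639 with indacaterol, against 1219, 814, 1936 and 1139 with vehicle (log2 change 1.55 ± 0.25, adjusted p = 0.00016). MYC had 5442, 5004, 6959 and 4718 in indacaterol-treated cells, against 2932, 2645, 4472 and 2690 in vehicle-treated cells (log2 change 0.81 ± 0.14, adjusted p = 0.000847), and array 3 was the brightest of each group in both BHLHE40 and MYC. Both missed the threshold without the arrays numbered 1 (adjusted p = 0.107 for BHLHE40 and 0.201 for MYC), and MYC also without those numbered 2 (adjusted p = 0.0861). The Kruppel-like factor KLF6 rose by a log2 change of 0.80, the nuclear protein gene CSRNP1 by 0.87 and TGIF1, a corepressor of TGF-beta signalling, by 1.21. ZNF331, a zinc finger protein gene, had 4672, 2468, 3193 and 1842 with indacaterol, against 1039, 900.1, 702 and 909 with vehicle (log2 change 1.69 ± 0.26, adjusted p = 4.19e-05). TFAP2A, a factor of epithelial development, rose by 0.45 and lost its call without the arrays numbered 3 (adjusted p = 0.262).

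FOS, JUNB, EGR1 and JUN, the classical serum-responsive factors, were not called without the block. FOS had 561, 312, 1668 and 264 in indacaterol-treated cells, against 280.1, 228, 336 and 144 in vehicle-treated cells, with overlap between the groups and the brightest signal in the indacaterol array numbered 3. FOS was called only with the block (adjusted p = 0.659, with the block 0.00533). JUNB was likewise called only with the block, at a log2 change of 0.74 (adjusted p = 0.69, with the block 0.015). EGR1, a growth-factor-induced factor, had 2612, 3327, 3609 and 2823 with indacaterol, against 4130, 4876, 4728 and 4635 with vehicle. All 4 indacaterol arrays of EGR1 lay below the vehicle arrays, but it was not called in either fit (log2 change -0.58 ± 0.19, adjusted p = 0.274, with the block 0.0763). JUN had a log2 change of -0.29, with overlapping arrays, and was not called in either fit. At 2 h EGR1 fell by 1.40 on the log2 scale, where 0.212% of genes fell by call (adjusted p = 1.3e-06). The difference between its 2 h and 1 h changes was not called (-0.82 ± 0.27, adjusted p = 0.632, with the block 0.111). Of 30 measured immediate early factors 7 rose and 0 fell (18 and 0 with the block), with a median log2 change of 0.60. Among all tested genes 0.187% rose at 1 h (0.764% with the block).

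SGK1, a kinase that keeps sodium channels at the cell surface, had 9069, 7498, 5873 and 6994 in indacaterol-treated cells, against 1243, 1726, 1305 and 2144 in vehicle-treated cells (log2 change 2.20 ± 0.23, adjusted p = 2.39e-09). TRIB1, a pseudokinase that directs C/EBP factors to degradation, had 2265, 1731, 1924 and 1516 with indacaterol, against 368, 427, 404 and 432 with vehicle and the lowest adjusted p of all tested genes (log2 change 2.13 ± 0.19, adjusted p = 2.05e-11). EDN1, the precursor of the constrictor peptide endothelin, had 4399, 4776, 5159 and 4251 in indacaterol-treated cells, against 1254, 1360, 1162 and 1661 in vehicle-treated cells (log2 change 1.77 ± 0.18, adjusted p = 2.39e-09). In SGK1, TRIB1 and EDN1 even the dimmest indacaterol array was far above the brightest vehicle array. LINC00473, a long non-coding RNA known as a CREB target, had 904, 706, 276 and 483 with indacaterol, against 214, 189, 95.5 and 184 with vehicle (log2 change 1.63 ± 0.33, adjusted p = 0.00578), and array 3 was the dimmest of both groups. It missed the threshold without the arrays numbered 1, 2 or 4 (adjusted p = 0.0958, 0.323 and 0.0853). ITPRIP, which encodes a protein that binds the inositol trisphosphate receptor, had 2640, 1769, 1871 and 1600 in indacaterol-treated cells, against 873, 649, 722 and 719.8 in vehicle-treated cells (log2 change 1.37 ± 0.22, adjusted p = 0.000127).

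The other risen genes with a mean signal of at least 100 changed less than 2-fold. AVPI1, named for its induction by vasopressin, had 7230, 4877, 6482 and 4705 with indacaterol, against 3718, 2543, 2735 and 2886 with vehicle (log2 change 0.96 ± 0.19, adjusted p = 0.00533), and without the arrays numbered 3 its adjusted p was 0.262. EFNA1, an ephrin ligand, rose by a log2 change of 0.88 and missed the threshold without them (adjusted p = 0.0529). Genes that act on messenger RNA tails and decay were ZFP36L1 (0.77), the poly(A) polymerase TENT5A (0.74) and TOB1, which recruits deadenylases (0.66). RND3, which restrains actomyosin contraction, rose by 0.54, and IRS2, an adaptor of insulin signalling, by 0.44. ZFP36L1, TOB1 and IRS2 missed the threshold without the arrays numbered 1 (adjusted p = 0.349, 0.335 and 0.555), numbered 2 or numbered 4, RND3 without those numbered 2 or 4 (adjusted p = 0.507 and 0.0682) and TENT5A without those numbered 1 (adjusted p = 0.125). Since the groups did not overlap in any of the 37 risen genes, all 37 were necessarily higher with indacaterol within each of the 4 replicate numbers. Of all tested genes 10.1% were higher in all 4.

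The lists and their members were chosen with earlier results of these data known. NR4A1, NR4A2 and NR4A3 stand among both the CREB targets and the immediate early factors. Read as lists, the CREB targets held the greatest median. Of 26 measured, 9 rose and 0 fell (16 and 0 with the block), with a median log2 change of 0.77. Over all tested genes 37 rose (0.187%, and 0.764% with the block), with a median of -0.022. The median of the CREB targets was 0.90, 0.70, 0.97 and 0.50 within replicate numbers 1 to 4. Of 32 repressors and patterning factors 3 rose (PRDM1, TRIB1 and ZNF331) and 1, SERTAD3, fell. With the block 10 of these rose and 1 fell, with a median of 0.20. Of 21 glucocorticoid-inducible genes 3 rose, namely SGK1, RGS2 and DUSP1, and 0 fell (8 and 0 with the block), with a median of 0.27. FKBP5, a gene that glucocorticoids induce strongly, had a log2 change of -0.029 and was not called in either fit. Of 24 growth and vascular factors 1 rose (EDN1), of 18 NF-kB feedback and decay genes 1 (ZFP36L1) and of 16 clock genes 1 (BHLHE40), with medians of 0.051, 0.024 and -0.014.

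No member of the heat shock, mitotic, squamous or interferon lists was called by limma without the block. The mitotic genes had a median of -0.090, with 1 of 30 above 0, 0 called in either fit and 2 at an unadjusted p under 0.05, both lower. All 19 measured interferon-stimulated genes lay above 0, with a median of 0.32, where 42.1% of all tested genes lay above 0. None of the 19 was called in either fit or had an unadjusted p under 0.05. MX1, an antiviral GTPase, was the highest, with 1963, 1682, 1258 and 1342 in indacaterol-treated cells, against 986, 1083, 619 and 1163 in vehicle-treated cells (log2 change 0.70 ± 0.52, adjusted p = 0.943, with the block 0.289). Their median was 0.46, 0.36, 0.25 and 0.15 within numbers 1 to 4, and it was 0.24 with both drugs against GSK at 1 h (17 of 19 above 0), -0.026 at 2 h and -0.53 at 6 h. TXNIP, which binds thioredoxin and limits glucose uptake, was the only stress gene called with the block (adjusted p = 0.455, with the block 0.00329). Its signals were 3523, 4371, 2726 and 5716 with indacaterol, against 5435, 5908, 4364 and 7777 with vehicle. In the squamous list 0 of 17 genes were called in either fit and 2 had an unadjusted p under 0.05, both higher.

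With replicate number as a block 164 further genes were called, of which 114 rose and 50 fell. The 15 that rose at least 2-fold were PDK4, SNAI2, BMP2, ARRDC3, KLF4, HES1, ANKRD37, PLK2, MAFF, FOS, C5AR1, CD200, DUSP5, PDE4D and NFIL3. In 4 of the 15 the groups did not overlap, where over all tested genes 2.36% lay above without overlap. PDK4, which shuts pyruvate out of mitochondrial oxidation, had 3255, 309, 4428 and 227 in indacaterol-treated cells, against 599, 80.9, 1270 and 41.2 in vehicle-treated cells (log2 change 2.01 ± 1.47, adjusted p = 0.938, with the block 7.12e-09). Its vehicle arrays 1 and 3 were brighter than indacaterol arrays 2 and 4, yet within each number indacaterol was higher by 1.75 to 2.41 on the log2 scale. SNAI2, a repressor of epithelial adhesion genes, had 1952, 1140, 4815 and 781 with indacaterol, against 524, 346, 1759 and 264 with vehicle, with differences within numbers from 1.44 to 1.87 (adjusted p = 0.5, with the block 6.32e-07). BMP2, a bone morphogenetic protein gene, had 265, 27.2, 413 and 35.4 in indacaterol-treated cells, against 55.1, 7.04, 167 and 0.0637 in vehicle-treated cells, with differences from 0.91 to 1.98 (adjusted p = 0.96, with the block 3.16e-06). KLF4 and the Notch effector HES1 showed the same layout, with higher signal in numbers 1 and 3 than in 2 and 4. CD200, a surface glycoprotein gene, had 2267, 2003, 1051 and 1853 with indacaterol, against 1005, 886, 459 and 1047 with vehicle, with array 3 the dimmest of both groups. MAFF, a small MAF factor, had 5391, 4139, 6086 and 3323 in indacaterol-treated cells, against 1978, 1999, 2238 and 2207 in vehicle-treated cells, without overlap (adjusted p = 0.0742, with the block 0.00809). With the block but without the arrays numbered 3, 114 genes were called, of which 107 rose and 7 fell. All 37 risen genes and 100 of the 151 that rose with the block were among them.

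**Figure D3:**
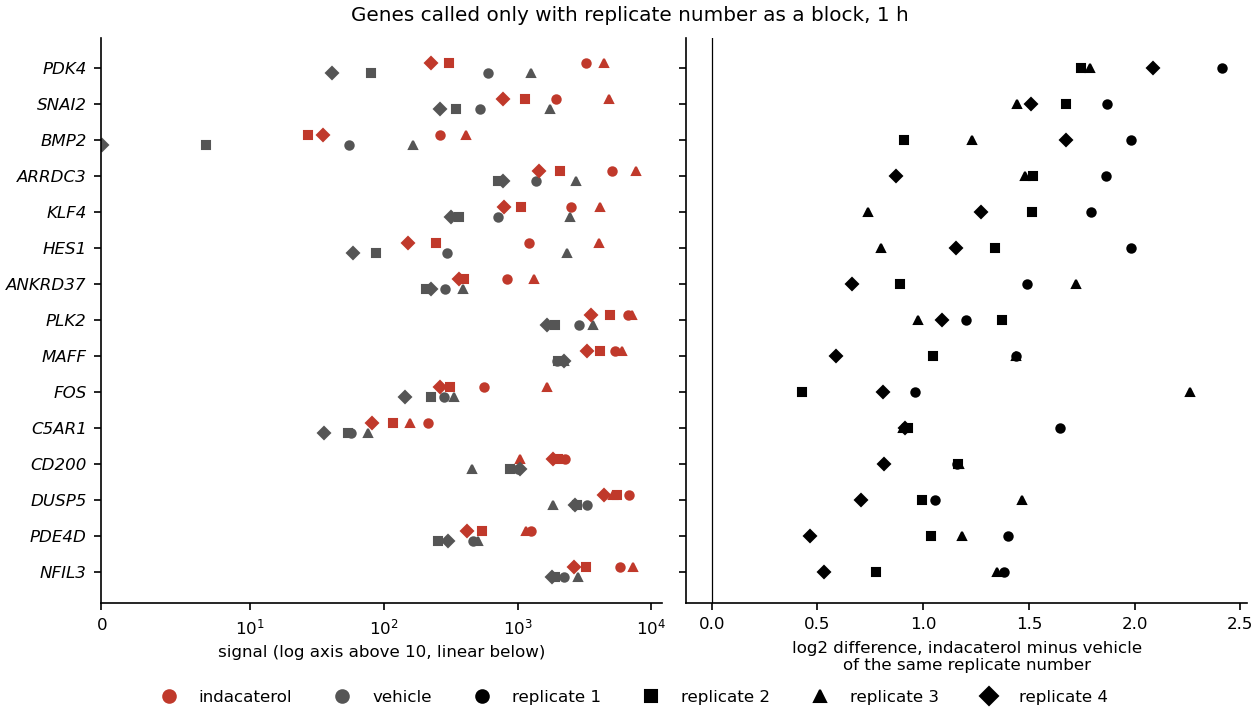
The 15 genes that rose at least 2-fold and were called only with replicate number as a block: left, signal per array at 1 h (indacaterol red, vehicle grey, log axis above 10 and linear below, marker shape for replicate number); right, the log2 difference between indacaterol and vehicle of the same number. All 60 differences lie above 0, while in 11 of the 15 genes the groups overlap on the left. The 15 were chosen by the fit that uses these differences, and 10.1% of all tested genes lie above 0 in all 4 numbers.

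The falls were few and small. MIR181A2HG, the host transcript of a miR-181 cluster, had 73.9, 72.7, 37.2 and 60.8 with indacaterol, against 111, 118.1, 140.1 and 101 with vehicle (log2 change -0.81 ± 0.18, adjusted p = 0.0226). The zinc finger gene ZNF57 had 489.8, 514, 395 and 521 in indacaterol-treated cells, against 735, 629, 611 and 697 in vehicle-treated cells (log2 change -0.47 ± 0.10, adjusted p = 0.0118). ZNHIT2 fell by 0.42 on the log2 scale, SERTAD3, a co-regulator of transcription, by 0.39, and C1orf74 by 0.36. In each of the 5 the indacaterol array numbered 3 was the lowest of its group. All 5 missed the threshold without the arrays numbered 3, with adjusted p from 0.14 to 0.498 and log2 changes from -0.57 to -0.32. Without the arrays numbered 1, 2 or 4, the counts of genes called lower among all tested were 0, 2 and 1. All 5 falls were thus also lost without the arrays numbered 1. ZNHIT2 alone remained called with the block and without the arrays numbered 3 (adjusted p = 0.0428). Fitted on the 8 arrays alone, 0 genes fell by call in limma with or without the block.

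Numbered zinc finger genes (ZNF followed by a number), a group chosen after its values were seen, were common among the falls called with the block. They were 425 of the tested genes (2.15%), 17 of the 55 genes that fell with the block (30.9%) and 2 of the 151 that rose. Their median log2 change was -0.13, with 82.8% below 0, against a median of -0.022 and 57.9% below 0 over all tested genes. The median was nearer to 0 without the arrays numbered 3, with a median of -0.092 against -0.012 over all genes, and none fell by call there, nor with the block on the same arrays. It was also nearer to 0 with both drugs against GSK at 1 h (-0.077, all genes -0.025) and at 2 h (-0.088, all genes -0.0002), it was 0.019 at 6 h (all genes -0.0045), and -0.053 at 18 h (all genes 0.0073). On the shared vehicle arrays at 1 h it was -0.15 with both drugs (all genes -0.041) and -0.078 with GSK alone (all genes -0.021).

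Among the risen genes 6 had a mean signal under 100 over all arrays, a limit chosen after seeing the data: CCL20, NAV2-AS2, CYP2E1, ESRRG, PRDM4-AS1 and LOC439933. CYP2E1, a cytochrome P450 gene, had 73.9, 68.7, 73 and 72.4 with indacaterol, against 33.9, 47.9, 44 and 51.1 with vehicle (log2 change 0.56 ± 0.10, adjusted p = 0.000636). The orphan nuclear receptor gene ESRRG had 63.8, 66.2, 71.7 and 54 in indacaterol-treated cells, against 37.8, 33.4, 43.4 and 43.5 in vehicle-treated cells (log2 change 0.53 ± 0.10, adjusted p = 0.00332). In GSK against vehicle at 1 h, which shares the 4 vehicle arrays, CYP2E1, ESRRG, PRDM4-AS1 and LOC439933 had log2 changes of 0.54, 0.43, 0.33 and 0.35. In both drugs against GSK, which shares no array, the same genes had -0.079, -0.15, 0.036 and 0.037. CYP2E1 was the 1 gene called with GSK against vehicle (adjusted p = 0.0209), and none of the 4 was called with both drugs against GSK. CCL20 had 1.32 with both drugs against GSK (adjusted p = 0.127, with the block 0.0122) and 0.38 with GSK against vehicle. All 6322 genes with a mean signal under 100 had a median of 0.073 with GSK against vehicle and -0.015 with both drugs against GSK. PRDM4-AS1 and LOC439933 also missed the threshold without the arrays numbered 3 (adjusted p = 0.0902 and 0.0547). No further probe set of CYP2E1, ESRRG, PRDM4-AS1 or LOC439933 was called.

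The rises were measured again on arrays that the 1 h comparison did not use. Where both drugs were set against GSK at 1 h, 27 genes rose (0.137%), and 24 of them were among the 37, which is 64.9% of the 37 and 88.9% of the 27. Of the 37 risen genes 35 lay above 0 in that comparison, with a median log2 change of 0.89 and a range from -0.15 to 2.62, where 39.2% of all tested genes lay above 0. The 2 below 0 were CYP2E1 and ESRRG. With the block 82 genes rose there (0.415%), among them 32 of the 37. NR4A2 changed by 2.58 ± 0.75 with GSK present, NR4A3 by 2.62 ± 0.58 and NR4A1 by 0.89 ± 0.27. With GSK alone against the shared vehicle arrays these genes had 1.60, 0.98 and 0.68, none of them called in either fit (0.00506% of genes were). PRDM1 changed by 2.34, TRIB1 by 1.80 and SGK1 by 1.92, each called. The difference between the indacaterol changes with and without GSK was called by limma for 0 genes (0.0% of those tested), with 547 at an unadjusted p under 0.05 and 1 call with the block (0.00506%). For NR4A2 that difference was -1.63, with a 95% interval from -3.75 to 0.49, an interval that includes 0.

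**Figure D4:**
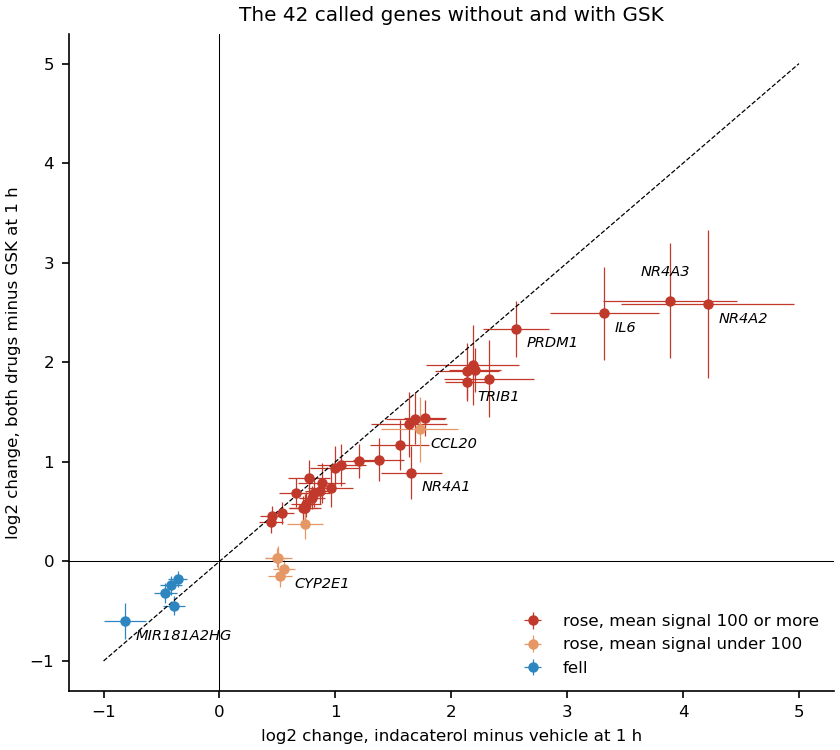
Log2 change of the 42 called genes with both drugs over GSK at 1 h (y axis) against that with indacaterol over vehicle at 1 h (x axis), with SE bars, n = 4 arrays per group; the 2 axes share no array, and the dashed line marks equal change. Of the 37 risen genes 35 lie above 0 on the y axis, and CYP2E1 and ESRRG lie below it; orange marks the 6 risen genes with a mean signal under 100.

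Most of the rises were also called at 2 h, and 0 of the 37 was called at 18 h. At 2 h indacaterol raised 195 genes (0.986%), among them 32 of the 37 (86.5% of the 37 and 16.4% of the 195), at 6 h 45 genes (0.228%) with 1 of the 37, LINC00473, and at 18 h 1 gene (0.00506%) with 0 of the 37. The 37 genes had a median log2 change of 1.12 at 2 h, 0.30 at 6 h and 0.036 at 18 h, and 34, 33 and 26 of them lay above 0. Between 1 and 2 h the change itself differed for 3 genes (0.0152%). SLC7A2, a transporter of basic amino acids, differed by 1.41 and the secreted protein gene CRISPLD2 by 2.64, both higher at 2 h, and CYP2E1 by -0.75. With the block 101 genes differed (0.511%, of which 0.485% higher at 2 h), including LINC00473, whose change was 1.63 at 1 h and 3.47 at 2 h (adjusted p of the difference = 0.28, with the block 5.11e-05). ITPRIP was also higher at 2 h with the block only (1.37 at 1 h and 2.16 at 2 h, adjusted p = 0.833, with the block 0.017). Those were the 2 of the 37 risen genes that were higher at 2 h with the block, and 3 were lower, namely CYP2E1, ESRRG and LOC439933 (0.0253% of tested genes were lower). NR4A3 changed by 3.88 at 1 h, 5.58 at 2 h, 2.23 at 6 h and -0.16 at 18 h, and its difference between 1 and 2 h was not called in either fit.

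At 6 h the change of 13 genes differed from that at 1 h (0.0657%), and 5 of the 37 risen genes were lower, where 0.0253% of tested genes were: PRDM1, TRIB1, SGK1, EDN1 and CSRNP1 (20 with the block, where 0.263% of tested genes were lower). TRIB1 changed by 2.13 at 1 h and 0.31 at 6 h, and EDN1 by 1.77 and 0.26. At 18 h the change of 9 genes differed from that at 1 h (0.0455%), and all 9 were risen genes that were lower at 18 h: NR4A3, IL6, PRDM1, TRIB1, SGK1, RGS2, EDN1, TGIF1 and KLF6 (29 of the 37 with the block, where 0.273% of tested genes were lower). Without the arrays numbered 1, 2 or 4 the 6 h difference was called for 4, 4 and 3 genes and the 18 h difference for 2, 3 and 3, and without those numbered 3 for 20 and 11. The 37 genes were picked by their 1 h change, which each of these differences subtracts, so the choice itself favours lower values later. How much of the counts this accounts for was not tested. IL6 changed by 3.32 at 1 h and 0.04 at 18 h. NR4A2, with the greatest rise at 1 h, did not pass this test without the block (difference between 18 and 1 h -4.01 ± 1.06, adjusted p = 0.333, with the block 6.27e-05).

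**Figure D5:**
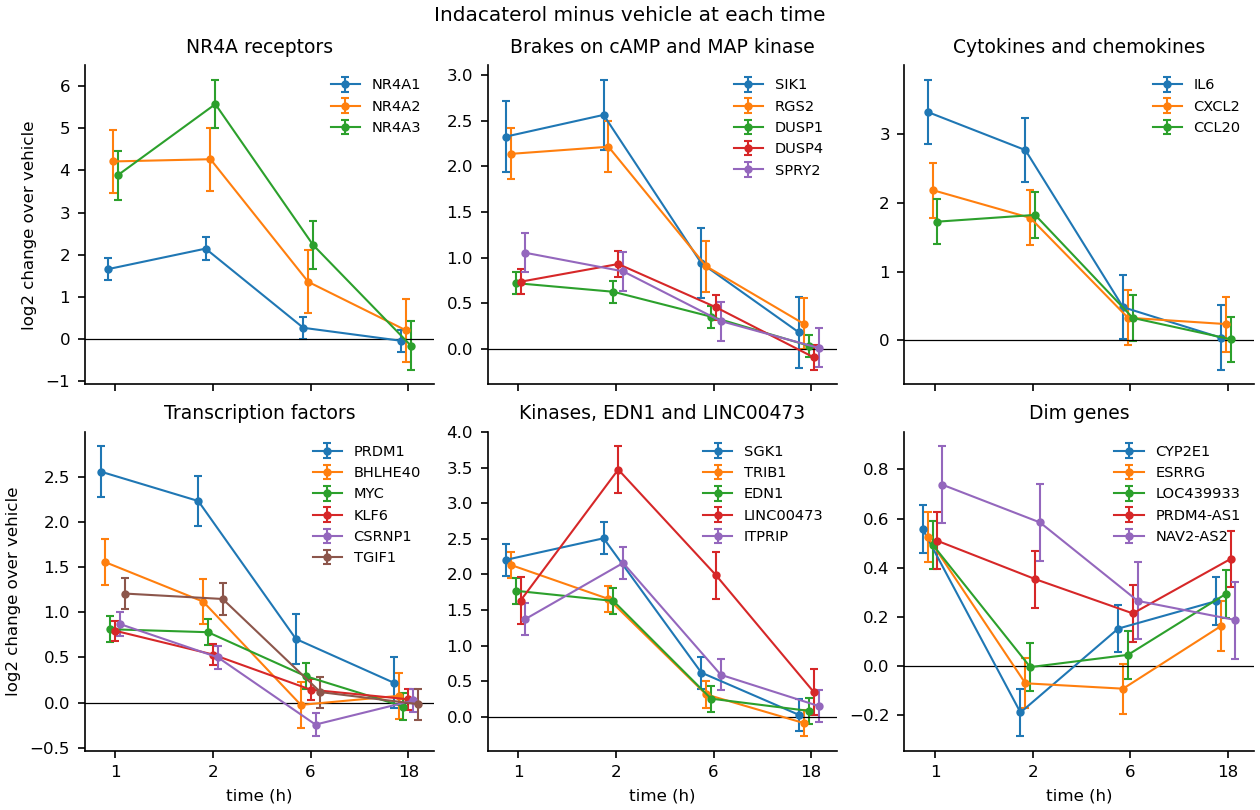
Log2 change between indacaterol and vehicle at 1, 2, 6 and 18 h (x axis, not to scale) for 27 genes that rose at 1 h, in panels by role; bars are SE, n = 4 arrays per group and time. At 18 h the dim genes lie between 0.16 and 0.44 and every other gene shown between -0.16 and 0.35.

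Other probe sets of the same genes gave a check within the arrays. Of the 37 risen genes 25 had further probe sets, 44 in all, of which 41 lay above 0 and 17 were called higher. Over all tested genes, with the brightest probe set each, 42.1% lay above 0. The further probe sets below 0 were those of CYP2E1 (log2 changes -0.062 and -0.034) and LOC439933 (-0.014). Those of ESRRG (0.152) and PRDM4-AS1 (0.024) were not called. At least 1 further probe set was called for 14 of the 25 genes. NR4A2 was alike in its 3 probe sets (log2 changes 4.21, 4.30 and 4.16), as were ZNF331 (1.69 and 1.76) and BHLHE40 (1.55 and 1.64). PRDM1 gave 2.56 in the brightest and 0.25 and 0.58 (the last also called, adjusted p = 0.000748 over probe sets) in dimmer ones, and NR4A1 gave 1.66, 1.72 and 0.028. In PRDM1 and NR4A1 the low values came from probe sets with vehicle means of 54.3 to 96.2, against 111.2 and 275.9 in the probe sets used. Dim probe sets were not always low. NR4A3 gave 3.885, 3.414 and 0.03 in probe sets with vehicle means of 45.3, 23.9 and 44.6. The dimmest probe set of NR4A2, at 4.16, had a vehicle mean of 33.7. The cause of the low values was not tested.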

How the data were processed

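The authors deposited linear probe-set intensities summarised with PLIER, and Transcriptome Analysis Console 4 is named too, per the submitters' processing notes. The extract was total RNA made into biotin-labelled cRNA for 3′ arrays, per the labels' protocols. Of 54675 probe sets, 41091 had 1 symbol in the platform annotation (41037 updated through the gene ID), 1801 had several and 11721 had none. The brightest probe set over all 64 arrays stood for a gene, which gave 19775 genes. Intensities were taken as log2(signal + 16) and fitted with limma 3.58.1 (R 4.3.3) as 16 group means over 64 arrays (48 residual degrees of freedom), with Benjamini-Hochberg adjustment over all genes. A change was called at an adjusted p under 0.05. The number of arrays limits the precision.

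Replicate number as a block was the paired alternative (45 residual degrees of freedom). At 1 h the deviations of the 2 arrays with the same number from their group means correlated at 0.601, 0.549, 0.889 and 0.708 for numbers 1 to 4. Each indacaterol array correlated best with the vehicle array of its own number, so the numbers were taken to pair the arrays. The highest correlation with a vehicle array of another number was -0.0519, 0.432, -0.0704 and 0.501, so numbers 2 and 4 stood out less than 1 and 3. The labels do not say what a number marks. Genes named were the called genes, the 15 greatest changes called only with the block, members of 21 gene lists, and the greatest changes between times. The members and lists were chosen with earlier results of these data known. The fit was tested on simulated data with independent noise. Those data held no effect of replicate number, unlike these arrays. Alternatives were other normalizations, offsets, filters, probe-set rules, the 8 arrays alone, and leaving out replicates.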

Additional observations from a re-analysis of the deposited data

Results flagged for a closer look

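C1orf74 was lowest in replicate 3 of both groups, far from the other 3 arrays, at 342.5 with indacaterol and 482.9 with vehicle. MAP3K8 was highest in vehicle replicate 3, at 346.4. These 3 came from 114 groups of 4 arrays examined, where chance marks about 1 in 20, and all 3 are arrays numbered 3.

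The change with indacaterol differed between times for the following genes, by limma's test of the difference. CYP2E1 was lower at 2 h than at 1 h by a log2 difference of -0.75. At 6 h the difference from 1 h was -1.11 for CSRNP1, -1.52 for EDN1, -1.85 for PRDM1, -1.58 for SGK1 and -1.82 for TRIB1, and it was 0.68 for ZNF57, which had fallen at 1 h. At 18 h the difference from 1 h was -1.69 for EDN1, -3.28 for IL6, -0.76 for KLF6, -4.04 for NR4A3, -2.34 for PRDM1, -1.86 for RGS2, -2.18 for SGK1, -1.22 for TGIF1 and -2.22 for TRIB1.

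Of 13522 probe sets without a single gene symbol, which entered no comparison of genes, 14 were called at 1 h, 10 higher and 4 lower (110 with replicate number as a block).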

How the results depend on the processing

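No direction reversed under the 24 alternatives among the 42 called genes and the 15 called only with the block, the genes for which they were run, of which the filter at a mean signal of 100 and the block without replicate 3 were added after seeing the data. With the replicate block the counts of called genes were 206 at 1 h, 101 for the difference between 2 and 1 h, 178 for 6 and 1 h, 58 for 18 and 1 h and 1 for the difference made by GSK. The block without replicate 3 gave 114 at 1 h. Fitted on the compared groups alone, the counts were 11, 0 (912 at an unadjusted p under 0.05), 2 and 4 for 1 h and the 3 time differences, and with the replicate block on those groups they were 43 at 1 h and 61, 197 and 29 for the time differences. The difference between 2 and 1 h was called for 6 genes after quantile normalization, 5 after median centring, 1 at offset 1, 6 at offset 64 and 0 with the mean over probe sets (1040 at an unadjusted p under 0.05). The difference between 6 and 1 h was called for 22 genes after quantile normalization, and that between 18 and 1 h for 5 at offset 1. The cause was not tested. Leaving out 1 replicate number gave 18 to 50 calls at 1 h, 0 to 2 between 2 and 1 h, 3 to 20 between 6 and 1 h and 2 to 11 between 18 and 1 h, and leaving out a single array gave 27 to 54 calls at 1 h. The difference made by GSK gave 0 calls in limma in each of those without the block (435 to 955 at an unadjusted p under 0.05). Signal near background limits the dim genes.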
